A study of Mus musculus with 24 samples.

Results

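Klf4-only distal sites with H3K27ac were regions of the mouse genome bound by the transcription factor Klf4 in embryonic stem cells, away from gene ends, without a peak of Oct4 or Sox2, and inside chromatin that carried acetylated lysine 27 of histone H3 (H3K27ac). They were found by merging the peaks of the 3 asynchronous Klf4 lists. A region was taken when it had a peak in at least 2 of these lists, no overlap with the asynchronous Oct4 or Sox2 list, its nearer edge more than 1 kb from any end of a protein-coding gene (mm10), and a peak in both asynchronous H3K27ac lists. This gave 4160 sites, 29.7% of the 14015 Klf4 regions in at least 2 asynchronous lists. The sites were thus selected on peaks in asynchronous cells, while the mitotic libraries had no part in the choice.

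The cells were V6.5 mouse embryonic stem cells (strain given as C57BL/6-129), first grown on irradiated feeder fibroblasts with LIF and serum and then passaged on gelatin in 2i medium. Chromatin immunoprecipitation and sequencing (ChIP-seq) had been done on mitotic cells, shaken off after 7 h in nocodazole (a spindle poison, labelled 100 ug/ml), and on asynchronous cells. Mitotic cells had 3 Klf4, 2 H3K27ac, 2 Oct4 and 2 Sox2 libraries, and asynchronous cells had 3 Klf4, 2 H3K27ac, 1 Oct4 and 1 Sox2 library. A further Klf4 library came from a mix with 10% stem cells, the rest being neural progenitors. The labels do not say that libraries came from separate cultures, so the tests measure only the spread between these libraries, which may be technical. The mitotic cells were a drug-arrested population, and asynchronous cells include some in mitosis.

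Klf4 is a zinc finger protein that binds CACCC and GC-rich DNA and belongs, with Oct4 and Sox2, to the factors that maintain pluripotency and reprogram somatic cells. H3K27ac is laid down by the acetyltransferases p300 and CBP at active promoters and enhancers. In mitosis chromosomes condense and most transcription stops, and factors or marks that stay on their sites through division are called bookmarks. The question put to these sites is which of them still had a Klf4 peak, and which still had an H3K27ac peak, in mitotic cells.

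The sequences shown are from sites that hold all or part of the 250 bases before a RefSeq start (GRCm38.p6): some genes start inside their span or are non-coding, so a site more than 1 kb from a protein-coding gene end can still hold one. Of the 4160 sites 443 overlapped such a window, 321 of them one of a protein-coding gene. The first 3 are the strongest of these with a peak in all 3 mitotic Klf4 lists and in both mitotic H3K27ac lists, and the last 2 are the strongest with no mitotic Klf4 peak and both mitotic H3K27ac peaks, so that sites that differed in mitotic Klf4 can be read against each other. The choice was made after values were seen. Capitals mark GGGNGTG, a core of the Klf4 motif, searched on both strands. The Dst window lies at chr1:34011345-34011594 (+ strand), that of Adh5 at chr3:138442843-138443092 (+), that of the non-coding gene Gm38543 (by Fos) at chr12:85451801-85452050 (+), that of Dedd at chr1:171329343-171329568 (+) and that of Myadm at chr7:3290305-3290554 (+).
Dst: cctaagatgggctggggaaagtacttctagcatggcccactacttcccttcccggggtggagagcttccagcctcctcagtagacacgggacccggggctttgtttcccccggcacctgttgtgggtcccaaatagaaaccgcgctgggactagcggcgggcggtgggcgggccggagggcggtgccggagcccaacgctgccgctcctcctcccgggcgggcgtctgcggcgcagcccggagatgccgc
Adh5: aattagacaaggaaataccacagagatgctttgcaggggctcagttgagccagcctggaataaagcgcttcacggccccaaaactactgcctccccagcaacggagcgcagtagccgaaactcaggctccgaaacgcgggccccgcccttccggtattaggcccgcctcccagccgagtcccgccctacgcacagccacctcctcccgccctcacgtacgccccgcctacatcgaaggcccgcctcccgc
Gm38543: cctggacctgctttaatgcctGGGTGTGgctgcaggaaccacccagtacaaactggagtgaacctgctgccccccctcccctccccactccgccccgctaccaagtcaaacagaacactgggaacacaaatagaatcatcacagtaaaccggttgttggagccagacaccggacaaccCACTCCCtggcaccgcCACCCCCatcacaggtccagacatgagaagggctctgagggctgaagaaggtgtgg
Dedd: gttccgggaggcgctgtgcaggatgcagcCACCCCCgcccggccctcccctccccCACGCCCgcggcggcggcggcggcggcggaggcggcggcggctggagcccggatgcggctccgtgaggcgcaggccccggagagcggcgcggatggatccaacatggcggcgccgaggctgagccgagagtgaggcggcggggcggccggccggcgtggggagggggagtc
Myadm: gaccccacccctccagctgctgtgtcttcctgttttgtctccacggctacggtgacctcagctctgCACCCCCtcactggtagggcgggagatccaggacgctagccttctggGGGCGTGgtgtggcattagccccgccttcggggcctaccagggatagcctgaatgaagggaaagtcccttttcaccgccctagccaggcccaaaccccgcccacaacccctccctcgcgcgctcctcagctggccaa
The Gm38543 window held 3 matches, and the Dedd and Myadm windows 2 each. No match was found in the Dst and Adh5 windows, which says only that these letters are not in them. The next strongest window of each set, of Hdac4 and of the non-coding gene Gm42312, held no match either and is not shown. Over all 250-base windows, 45.2% of the 520 that overlapped a site held a match, against 26.1% of all 32817 windows. These windows were also richer in G and C (64.4% against 53.2%), and the part of base composition was not tested. Windows at sites with a peak in at least 2 mitotic Klf4 lists held a match in 54.8% of 186 cases, and those at sites with none in 40.1% of 187. The share was 55.7% of 115 windows at Klf4-only distal sites without H3K27ac and 41.5% of 3397 at Klf4-only sites with H3K27ac at gene ends, so it was not highest at the acetylated distal sites.

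In mitotic cells the 4160 sites had a Klf4 peak in 29.5% (exact 95% interval 28.1 to 30.9), 17.8% (16.7 to 19.0) and 49.6% (48.1 to 51.2) of cases in mitotic libraries 1, 2 and 3. The share with a peak in a mitotic library is called recovery below, and it averaged 32.3% ± 16.1 (SD, n = 3). For all 14015 Klf4 regions, which include these sites, it was 30.3%, 18.8% and 44.3%. Intervals cover counting error only, and the number of peaks listed per library was the only measure of yield, because read depth was unknown. The 3 lists held 5754, 3795 and 8438 peaks, so the library with the longest list also had the highest recovery. H3K27ac had a peak at 63.5% and 61.2% of the sites in the 2 mitotic libraries (62.3% ± 1.60, SD, n = 2), against 51.7% and 48.9% of all Klf4 regions.

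Because the sites were chosen for their asynchronous peaks, a fair reference needs an asynchronous library that did not choose them. With each asynchronous Klf4 library held out in turn and the sites rebuilt from the 2 others, the 3 mitotic libraries recovered 38.1%, 23.9% and 58.9% of the sites, against 60.0%, 96.6% and 63.1% in the held-out asynchronous libraries 1, 2 and 3. Each mitotic value is the mean over the 3 rebuilt sets, of 3043, 1879 and 2862 sites. Each asynchronous value comes from 1 set, and that library helped build the 2 others. The values are thus not independent, and the p-values of these held-out tests are only approximate. Means were 40.3% ± 17.6 in mitotic and 73.2% ± 20.3 in asynchronous libraries (SD, n = 3 each). The difference was −32.9 percentage points (exact two-sided permutation test, p = 0.1, the smallest that 3 against 3 allow). Every mitotic mean over the sets was below every asynchronous value, but this order is not one on the same sites. On the sets with asynchronous library 1, 2 or 3 held out, the 3 mitotic libraries averaged 37.8%, 47.1% and 36.0%, against 60.0%, 96.6% and 63.1% in the held-out one. The mitotic lists held 5754, 3795 and 8438 peaks and the asynchronous ones 10575, 21307 and 16455. With all lists brought to equal length the recovery was 58.9% in mitotic and 69.7% in held-out asynchronous libraries, a difference of −10.9 points (exact two-sided permutation test, p = 0.5). The Klf4 difference was −24.7 points without mitotic library 2 (p = 0.3 by the same exact test). For H3K27ac the same procedure gave 60.0% and 57.8% in mitotic libraries, against 94.4% and 90.7% in held-out asynchronous libraries. This difference of −33.6 points had p = 0.3333 (the same exact permutation test, which 2 against 2 cannot take lower). The mitotic H3K27ac libraries are from project EC-DG-3514 and the asynchronous ones from EC-DG-3458, so state and project cannot be told apart for this mark. For Klf4 only project EC-EA-3702 had both states, with 1 library each (mitotic 3 and asynchronous 3). These had 58.9% (mean over the 3 sets) and 63.1% (1 set), so the 2 values are not over the same sites. Among the 4160 sites, mitotic 3 had a peak at 31.3% of those in asynchronous lists 1 and 2 only and at 67.2% of those in all 3. Mitotic libraries 1 and 2 shared no project with an asynchronous Klf4 library, so state and project cannot be told apart there. The closest values across states were 58.9% (mitotic 3) and 60.0% (asynchronous 1), again over unlike sets of sites.

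Site by site, 1136 sites (27.3%, exact 95% interval 26.0 to 28.7) were kept, meaning that at least 2 of the 3 mitotic Klf4 lists had a peak there, against 26.8% of all Klf4 regions. Another 1348 (32.4%; 29.2% of all Klf4 regions) had a peak in 1 list, and 1676 (40.3%, interval 38.8 to 41.8) were lost, with a peak in none, against 43.9%. All 3 lists had a peak at 413 sites (9.93%; 10.5% of all Klf4 regions). The kept share of these sites was thus near that of Klf4 regions as a whole. Mitotic library 3 alone held 1002 sites (24.1%), library 1 alone 247 and library 2 alone 99. The kept count was 569 without mitotic library 1, 907 without library 2 and 486 without library 3, when both remaining lists had to have a peak. The lost count was 2678 without library 3.

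H3K27ac went with Klf4. Both mitotic H3K27ac lists had a peak at 2264 sites (54.4%; 44.8% of all Klf4 regions), 1 list at 658, and neither at 1238 (29.8%; 44.2% of all Klf4 regions). Of the 413 sites in all 3 mitotic Klf4 lists, 76.3% had H3K27ac in both mitotic lists. The share was 62.0% of 723 sites in exactly 2 Klf4 lists, 53.9% of 1348 in 1 and 46.2% of 1676 in none. The mean H3K27ac recovery was 73.9% at kept and 55.1% at lost sites, a difference of +18.8 points in each of the 2 libraries (exact sign-flip test over libraries, p = 0.5, the smallest possible with 2). The difference was +14.6 points within quintiles of Klf4 strength and +9.62 within quintiles of H3K27ac strength in asynchronous cells. Mitotic Klf4 libraries 1 and 2 and both mitotic H3K27ac libraries were of project EC-DG-3514. Without mitotic Klf4 library 3 the difference was +22.4 points. With sites and Klf4 state taken from the EC-EA-3702 Klf4 lists alone (4135 sites) it was +10.5. There 1 asynchronous list chose the sites, and mitotic library 3 alone decided kept or lost. Strength is the percentile of a site's fold within each asynchronous list, averaged over the lists that hold it. Kept sites had a median width of 498 bp and a median Klf4 strength of 75.9, against 352 bp and 48.6 at lost sites, and a wider site can meet a peak more often by construction.

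**Figure D1:**
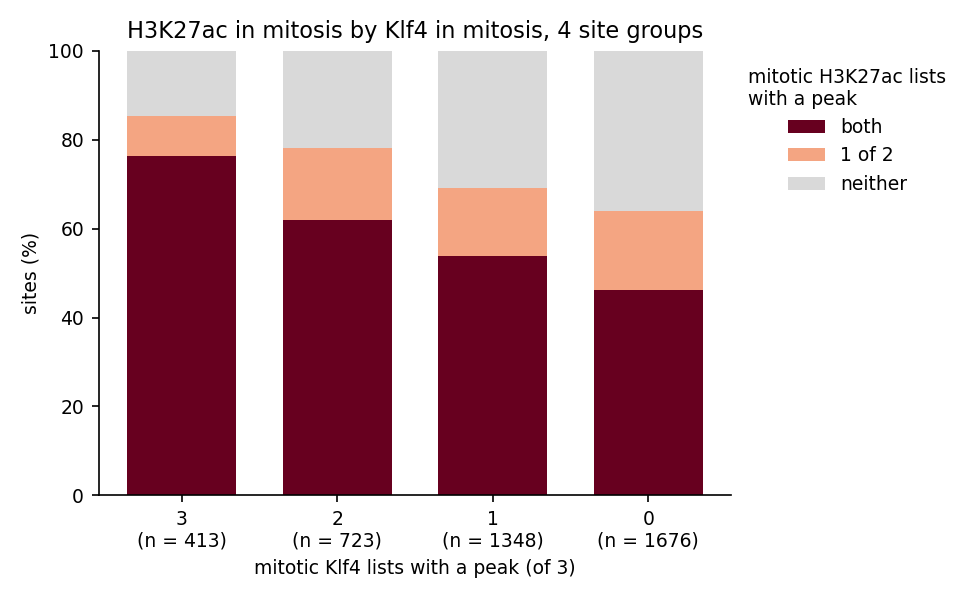
Percent of the sites (vertical axis) with an H3K27ac peak in both, 1 or neither mitotic list, for sites with a peak in 3, 2, 1 or 0 mitotic Klf4 lists (horizontal axis). The share with both falls along the axis, with 76.3% in the 3-list bar and 46.2% in the 0-list bar.

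The coupling was partial in both directions. Among sites with H3K27ac in both mitotic lists 33.7% were kept and 34.2% lost by Klf4, and among those with H3K27ac in neither 17.7% were kept and 48.7% lost. All 4 combinations had many sites: 763 were kept with both H3K27ac peaks, 219 kept with neither, 774 lost with both and 603 lost with neither. These combinations were not counted over all Klf4 regions or the other classes. Nothing here shows the coupling to be particular to these sites. The strongest sites of each combination are given next, with the authors' fold enrichment per peak.

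Sites that held both Klf4 and H3K27ac in every mitotic library included 1 inside Src, a non-receptor tyrosine kinase (chromosome 2, 157456908 to 157457918). Its Klf4 folds were 13.5, 7.90 and 18.9 in mitotic libraries 1, 2 and 3, against 29.1, 14.0 and 27.01 in asynchronous ones. Its H3K27ac folds were 3.49 and 4.04 in mitotic and 3.98 and 5.64 in asynchronous libraries. The site 143.3 kb from Cited2, which encodes a partner of p300 and CBP (chromosome 10, 17579377 to 17579925), had Klf4 folds of 4.81, 6.21 and 18.2 in mitotic and 19.6, 13.2 and 28.3 in asynchronous libraries. There the H3K27ac folds were 8.14 and 8.94 in mitotic and 25.0 and 24.2 in asynchronous libraries. At both sites the ranges of mitotic and asynchronous Klf4 folds overlapped, and folds of lists with unknown depth are on no common scale. In mitotic library 2 the lower quartile and the median of the folds at all sites with a peak were both 4.72, so many weak peaks there share a value.

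Inside Hdac4, a class IIa histone deacetylase (chromosome 1, 92180049 to 92181340), Klf4 folds were 11.4, 11.1 and 17.96 in mitotic and 13.9, 11.3 and 40.3 in asynchronous libraries, and H3K27ac folds were 18.6 and 21.4 in mitotic and 25.0 and 30.5 in asynchronous libraries. Adh5 (chromosome 3, 138442574 to 138443261), an enzyme that clears formaldehyde, had Klf4 folds of 6.74, 4.52 and 13.7 in mitotic and 16.2, 12.2 and 47.1 in asynchronous libraries. This is the site whose promoter window is printed above. The site 21.8 kb from Fos, an AP-1 subunit (chromosome 12, 85451526 to 85452138), had 5.29, 4.72 and 11.7 in mitotic and 16.2, 11.6 and 24.8 in asynchronous libraries. The 3 others of this set lay inside Dst, a linker of the cytoskeleton (chromosome 1, 34010955 to 34012258), inside Sipa1l3, a relative of Rap GTPase activators (chromosome 7, 29454777 to 29455496), and 40.9 kb from Atf3, a stress-induced bZIP factor (chromosome 1, 191224202 to 191225116). The Atf3 site had H3K27ac folds of 5.23 and 3.75 in mitotic and 4.41 and 4.80 in asynchronous libraries. Fos and Atf3 are both immediate-early genes. Of these 8 sites 5 (by Dst, Adh5, Fos, Hdac4 and Atf3) overlapped a RefSeq promoter window, as did 10.9% of all sites.

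The strongest sites with no mitotic Klf4 peak but H3K27ac in both mitotic libraries had lower asynchronous Klf4 folds than the set above. The strongest, 185.1 kb from Enc1, a BTB-kelch protein (chromosome 13, 97438156 to 97438627), had asynchronous Klf4 folds of 9.87, 6.67 and 9.06, and H3K27ac folds of 3.49 and 5.19 in mitotic and 20.2 and 15.7 in asynchronous libraries. The site inside Trim71, an RNA-binding regulator of early development (chromosome 9, 114527944 to 114528459), had Klf4 folds of 9.91, 5.87 and 7.41 in asynchronous cells, and H3K27ac folds of 13.4 and 11.2 in mitotic and 23.4 and 22.1 in asynchronous libraries. At Dedd, a death effector domain protein (chromosome 1, 171329343 to 171329892), asynchronous Klf4 folds were 7.98, 4.68 and 8.76, and H3K27ac folds were 12.5 and 12.9 in mitotic and 20.1 and 28.4 in asynchronous libraries. The others were inside Dab2ip, a Ras GTPase activator, 13.7 kb from Pard6b, a polarity protein, and 28.8 kb from Fxr1, an RNA-binding protein.

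Some sites had neither mark of mitotic occupancy. The strongest of those in all 3 asynchronous Klf4 lists lay 22.0 kb from Sipa1l3 (chromosome 7, 29541134 to 29541502). Its asynchronous Klf4 folds were 7.32, 6.38 and 14.4. Sipa1l3 was thus the nearest gene of a site with every mitotic peak and of a site with none. The next were 46.1 kb from Amotl2, an angiomotin family member (chromosome 9, 102779534 to 102779971), inside Msi1, an RNA-binding protein of stem cells (chromosome 5, 115429211 to 115429712), and inside Dscaml1, a cell adhesion molecule (chromosome 9, 45502028 to 45502630). Their asynchronous H3K27ac folds lay between 6.80 and 13.3. Sites in only 2 asynchronous Klf4 lists could be stronger. The site with Tbc1d8 as nearest gene had neither mitotic mark and a strength of 98.3, against 92.3 at the Sipa1l3 site.

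The reverse, Klf4 in all 3 mitotic libraries and H3K27ac in neither, included the strongest site of all. It lay 32.5 kb from Grap, which encodes an adaptor like Grb2 (chromosome 11, 61619814 to 61620869), with Klf4 folds of 10.6, 11.5 and 28.2 in mitotic and 48.3, 18.01 and 49.8 in asynchronous libraries. Its asynchronous H3K27ac folds were 5.30 and 6.80. The others lay 9.94 kb from Klhdc8a, a kelch domain protein (chromosome 1, 132287918 to 132288548), 547.7 kb from Stxbp6, a SNARE-binding protein (chromosome 12, 45622796 to 45623288), and 99.9 kb from Ext1, a heparan sulfate polymerase (chromosome 15, 52967836 to 52968346). The asynchronous H3K27ac folds of these 4 sites lay between 5.09 and 6.80. The Src and Atf3 sites, which had H3K27ac in both mitotic lists, had folds as low as these.

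**Figure D2:**
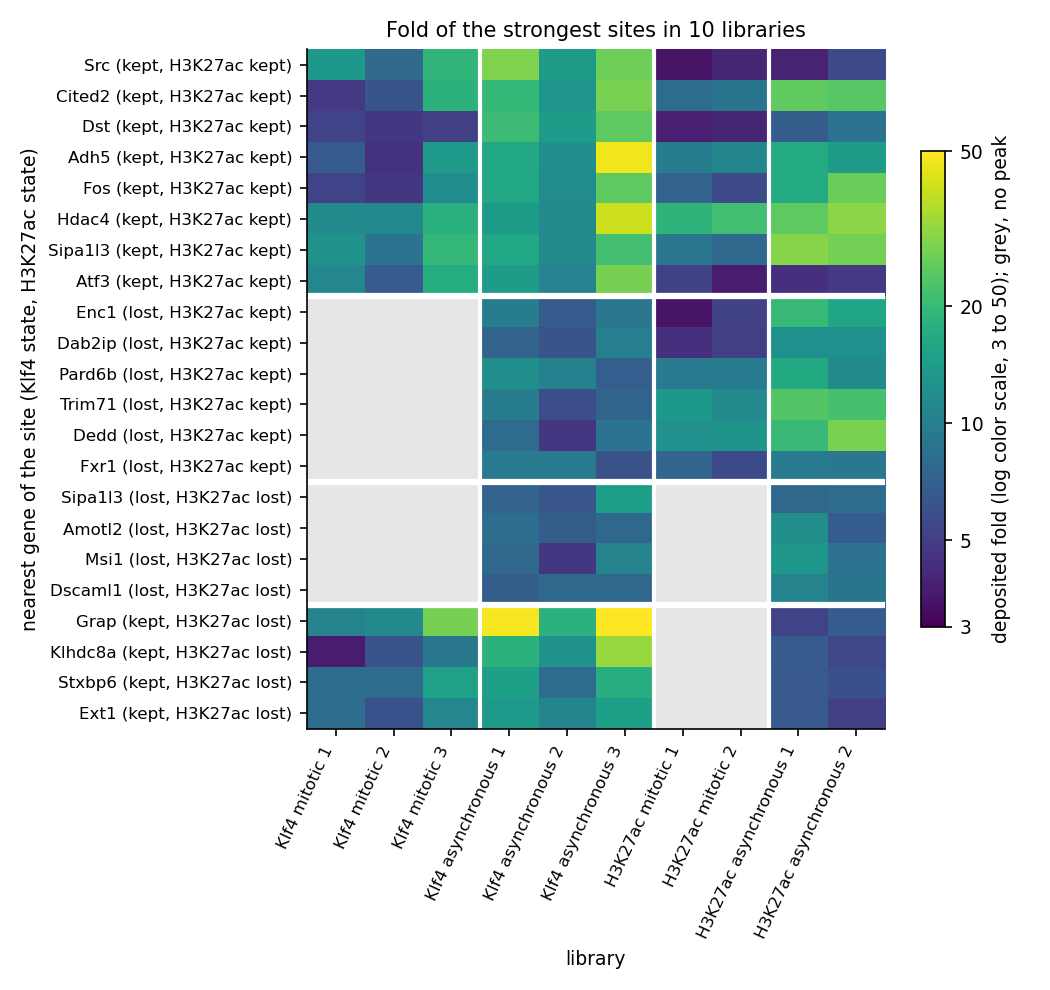
Deposited fold per library (color, log scale, grey for no peak) for the strongest sites of the 4 combinations of mitotic Klf4 and H3K27ac. The sites are taken from those in all asynchronous Klf4 lists. The horizontal axis has 10 libraries and the vertical axis the nearest gene. For H3K27ac, kept means a peak in both mitotic lists and lost a peak in neither. Folds run between 3.49 and 49.8, and asynchronous H3K27ac folds are at most 6.80 at the 4 sites with Klf4 kept and H3K27ac lost and also at the Src and Atf3 sites, which kept both.

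The sites were compared with 3 other classes of Klf4 region to show what Klf4-only, distal and acetylated each went with. Against the 2674 Klf4-only distal sites without H3K27ac in either asynchronous list, Klf4 recovery was 29.5%, 17.8% and 49.6% against 13.9%, 6.81% and 30.9%. The difference was +15.1 ± 3.88 points (SD over the 3 libraries), higher in 3 of 3 (exact sign-flip test, p = 0.25, the smallest possible with 3). By project, the difference was +15.6 and +11.01 points in the EC-DG-3514 libraries and +18.7 in the EC-EA-3702 library. The acetylated sites were stronger (median strength 59.0 against 47.8) and wider (median 408 against 318 bp) in asynchronous cells. The difference was +10.4 points within strength quintiles and +7.93 within width quintiles. Of the sites without H3K27ac 10.96% were kept and 62.2% lost.

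Against the 3972 Klf4-only gene-end sites with H3K27ac the order depended on the library. Recovery was 29.5%, 17.8% and 49.6% at the distal sites against 40.6%, 27.5% and 46.1% at gene ends. The difference was −11.1 and −9.68 points in the libraries of project EC-DG-3514 and +3.54 in that of EC-EA-3702, with a mean of −5.75 ± 8.08 (exact sign-flip test, p = 0.5). H3K27ac recovery was lower at the distal sites in both libraries, at 62.3% ± 1.60 against 79.6% ± 3.47 (difference −17.3 points, exact sign-flip test, p = 0.5, the smallest possible).

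Against the 1092 distal sites with H3K27ac that Klf4 shared with Oct4 or Sox2, Klf4 recovery was lower in all 3 libraries, at 32.3% ± 16.1 against 49.1% ± 17.9 (difference −16.8 ± 2.93 points, exact sign-flip test, p = 0.25). Shared sites had a median strength of 70.6, and within strength quintiles the difference was −9.35 points. Of the shared sites 48.5% were kept. H3K27ac recovery was 62.3% against 69.9% (−7.59 points, lower in 2 of 2 libraries, p = 0.5 by the same exact test).

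**Figure D3:**
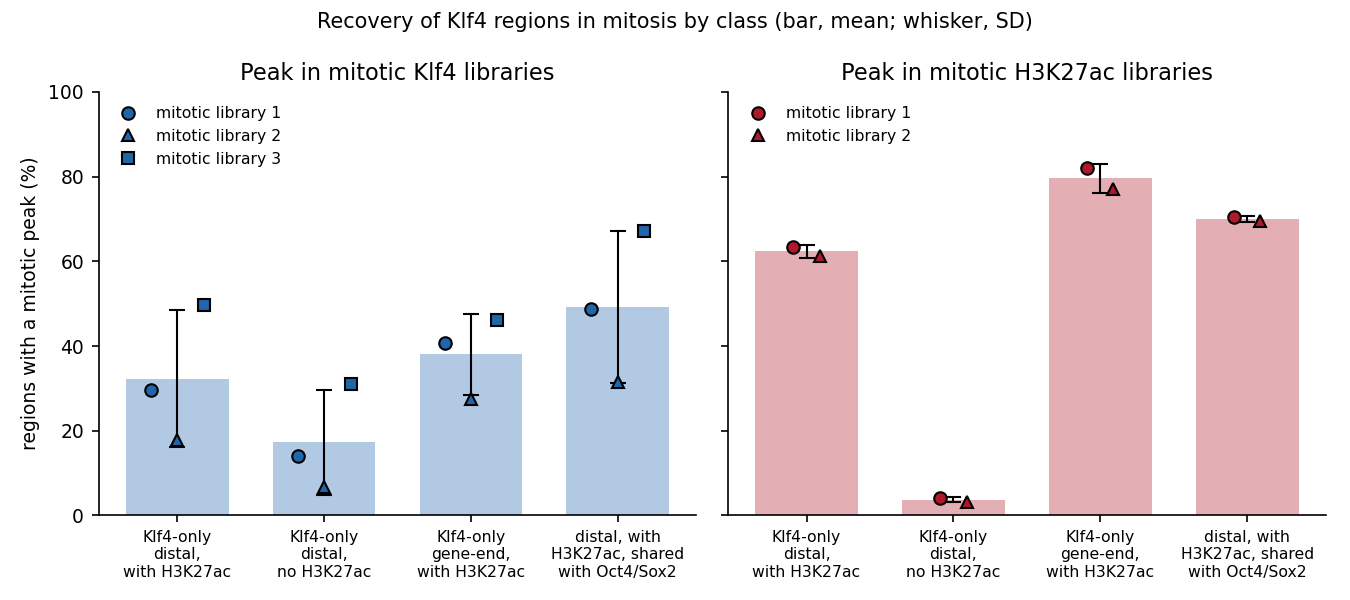
Percent of regions with a peak in each mitotic library (vertical axis) for 4 classes of Klf4 region (horizontal axis), for Klf4 on the left and H3K27ac on the right; bars are means, whiskers SD and points libraries. Klf4-only distal sites with H3K27ac average 32.3% for Klf4, between sites without H3K27ac (17.2%) and sites shared with Oct4 or Sox2 (49.1%).

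Presence of a site also went with the H3K27ac fate of the surrounding region. Asynchronous H3K27ac regions more than 1 kb from a gene end that overlapped a site (n = 4151) had a mitotic H3K27ac peak in 61.6% of cases. The value was 39.5% for 13532 distal H3K27ac regions without any asynchronous peak of the 3 factors. Regions with a site could also hold asynchronous Oct4, Sox2 or other Klf4 peaks outside the site. These were not removed, and their part in the difference was not tested. The difference was +22.1 ± 0.478 points, higher in 2 of 2 libraries (exact sign-flip test, p = 0.5), and +6.62 points within quintiles of region width. When an overlap had to cover at least 50% of the shorter interval it was +40.005 points (77.5% of 1837 regions with a site against 37.5%).

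Among the sites themselves, asynchronous Klf4 strength went with mitotic Klf4. Strength quintiles were cut over all 14015 Klf4 regions and held 689 to 1002 of the sites each. Weakest first, mean Klf4 recovery was 14.6%, 20.9%, 26.6%, 35.6% and 54.9%. At distal sites without H3K27ac the same quintiles had 9.44%, 12.0%, 19.0%, 22.5% and 37.4%. Mitotic H3K27ac varied less with Klf4 strength, between 58.0% and 70.4% over the quintiles of the acetylated sites. Asynchronous H3K27ac strength, with quintiles cut over the 4160 sites, showed the opposite weighting. Over these quintiles mean H3K27ac recovery was 25.8%, 44.7%, 64.4%, 81.6% and 95.2%, while Klf4 recovery was 24.6%, 29.4%, 31.6%, 33.9% and 42.2%. Each mark thus varied most along its own asynchronous strength, and both were highest in the top quintile of either.

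**Figure D4:**
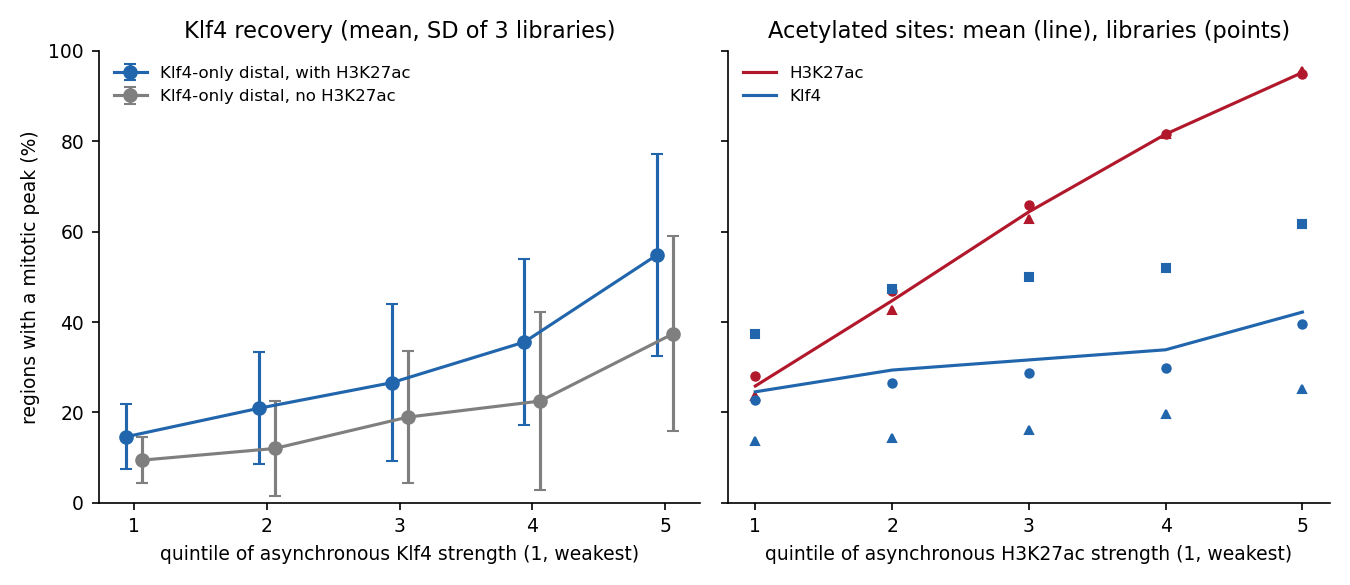
Percent of regions with a mitotic peak (vertical axes) by quintile of asynchronous Klf4 strength (left; mean and SD of 3 libraries, acetylated sites and sites without H3K27ac) and of asynchronous H3K27ac strength (right; acetylated sites, points are libraries). On the right H3K27ac recovery spans 25.8% to 95.2%, and Klf4 recovery 24.6% to 42.2%.

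The width of the surrounding H3K27ac region had the same split. In asynchronous H3K27ac regions under 1 kb, 1 to 2 kb, 2 to 5 kb and 5 kb or more, mean H3K27ac recovery of the sites was 34.5%, 49.3%, 70.8% and 90.7%. Mean Klf4 recovery in these groups was 28.0%, 31.7%, 31.2% and 39.3%. Distance from the nearest gene end went with H3K27ac. At 1 to 5, 5 to 20, 20 to 100 and over 100 kb, mean H3K27ac recovery was 67.0%, 64.9%, 60.0% and 48.3%, and mean Klf4 recovery was 31.8%, 32.7%, 32.2% and 32.9%. The Klf4 mean hides differences between libraries: over the groups library 1 fell and library 3 rose, while library 2 was highest at 20 to 100 kb (18.3%). Over 100 kb the Klf4 recovery was 27.5%, 15.8% and 55.3% in mitotic libraries 1, 2 and 3, against 30.9%, 17.5% and 46.9% at 1 to 5 kb. The 454 sites that overlapped a 300-base RefSeq promoter window had Klf4 recovery of 41.6%, 28.4% and 48.2%, against 28.0%, 16.5% and 49.8% at the other 3706. Promoter windows went with higher recovery in mitotic libraries 1 and 2, both of project EC-DG-3514, and not in library 3.

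**Figure D5:**
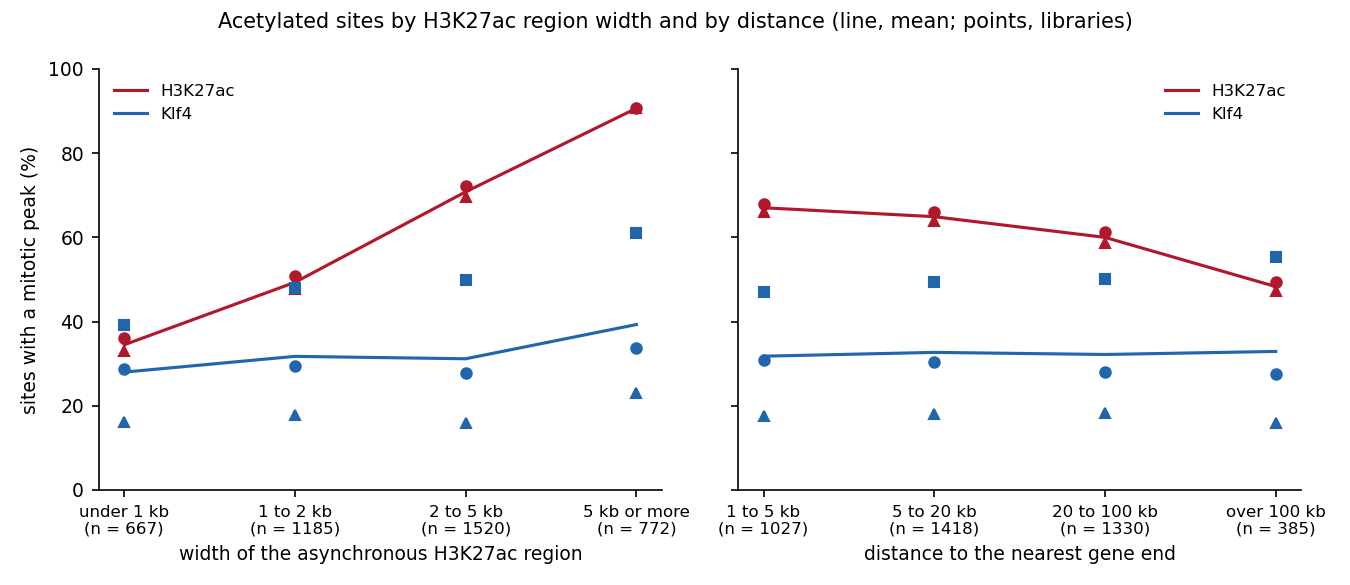
Percent of the sites with a mitotic peak (vertical axis) by width of the asynchronous H3K27ac region (left) and by distance to the nearest gene end (right); lines are means and points libraries. H3K27ac recovery is 34.5% in the narrowest and 90.7% in the widest regions, while mean Klf4 recovery lies between 31.8% and 32.9% over all distances, with mitotic library 3 higher and libraries 1 and 2 lower over 100 kb than at 1 to 5 kb.

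Some sites lay between acetylated stretches. Of the 4160 sites 856 (20.6%) overlapped 2 separate asynchronous H3K27ac regions, 3288 overlapped 1, and 16 overlapped no region common to both lists. This split was made after values were seen. Sites that bridged 2 regions had Klf4 recovery of 36.2%, 22.1% and 60.7%, against 27.8%, 16.7% and 46.8% at sites in 1 region, higher in 3 of 3 libraries. Their H3K27ac recovery was 53.2% and 51.9%, against 66.4% and 63.9%, lower in 2 of 2. Bridging sites were stronger in asynchronous Klf4 (median strength 65.2 against 57.8), with median widths of 425 and 403 bp. The part of strength in this difference was not tested.

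Most sites stood alone. When each was assigned to its widest H3K27ac region, 3473 were the only site there, 504 shared the region with 1 other and 167 with at least 2 others. H3K27ac recovery in these groups was 58.6%, 78.7% and 95.5%, and Klf4 recovery 31.9%, 33.5% and 37.3%. The sites were 129 to 2459 bp wide (median 408), lay a median of 14.3 kb from a gene end, and 2117 of them (50.9%) lay inside a protein-coding gene. At the thresholds of the choice, sites 1 to 1.5 kb from a gene end had 31.4% Klf4 and 65.5% H3K27ac recovery, and otherwise like sites 0.5 to 1 kb away had 29.3% and 74.5%. Sites in 3, 2 and 1 asynchronous Klf4 lists had Klf4 recovery of 47.3%, 20.6% and 8.04%, and only sites in 3 or 2 lists are among the 4160. With H3K27ac in 2, 1 and 0 asynchronous lists it was 32.3%, 19.9% and 17.2%.

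Mitotic Oct4 and Sox2 peaks were few at these sites, which by choice had none in the asynchronous Oct4 and Sox2 lists. Those lists, of 1 library each, held 3347 and 2986 peaks. The mitotic lists held 1246 and 5282 peaks for Oct4 and 4537 and 1940 for Sox2. Whether the asynchronous lists missed peaks at these sites was not tested. Oct4 had a peak at 1.39% and 6.44% of them in its 2 mitotic libraries (4.16% and 9.43% of all Klf4 regions). Sox2 had one at 7.00% and 2.50% (9.13% and 5.09%). Any of the 4 libraries had a peak at 482 sites (11.6%, against 13.4% of all Klf4 regions), 3.59% of the distal sites without H3K27ac and 1.03% of the gene-end sites. At kept sites Sox2 recovery was 12.3% and 4.67% in its 2 libraries, against 3.34% and 1.49% at lost sites. Oct4 recovery was 1.94% and 8.71% at kept and 1.19% and 4.89% at lost sites. Both Oct4 libraries had a peak at 43 sites (1.03%; 3.83% of all Klf4 regions) and both Sox2 libraries at 78 (1.88%; 4.62%). Among sites in all 3 asynchronous Klf4 lists, the strongest with both mitotic Sox2 peaks were those by Cited2 and Sipa1l3 given above. The next lay 18.5 kb from Ppp1r21, a regulatory subunit of protein phosphatase (chromosome 17, 88510972 to 88511611), with Sox2 folds of 3.99 and 4.74. In the Klf4 library of the 10% mix 4 sites had a peak (0.0962%, against 0.0928% of all Klf4 regions).

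Sites were linked to every protein-coding gene within 20 kb, which does not show that they regulate it. In all 3558 genes (16.2% of 21896) had a site, and 967 sites had no gene. The genes below come from 13 lists, and counts of sites are to be read against 27.3% kept, 40.3% lost and 54.4% with both mitotic H3K27ac peaks over all sites.

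Of 23 naive pluripotency genes 18 had a site, 30 sites in all, of which 10 were kept, 6 intermediate and 14 lost, and 22 had H3K27ac in both mitotic lists. Their median strength was 58.6, against 59.0 for all sites. Esrrb, a nuclear receptor without known ligand, had the most, with 6 sites over chromosome 12, 86462994 to 86504948, 3 of them kept and 3 lost. The strongest (86478886 to 86479285) had Klf4 folds of 6.74 and 4.65 in mitotic libraries 1 and 3, no peak in mitotic 2, and 8.86 and 5.63 in asynchronous libraries 1 and 2. A pair of lost sites (86466084 to 86466473 and 86469955 to 86470389) lay in the same asynchronous H3K27ac region as that kept site, and all 3 had H3K27ac in both mitotic lists. The 3 sites of Tfcp2l1, a transcription factor of the naive network, were all lost by Klf4, and 2 had H3K27ac in both mitotic lists. At Tbx3, a T-box factor, the site at chromosome 5, 119681778 to 119682264 had Klf4 folds of 4.72 and 4.17 in mitotic libraries 2 and 3 and 9.58, 10.1 and 12.7 in asynchronous libraries. It had no mitotic H3K27ac peak, against an asynchronous fold of 30.1 in the first library. The neighbouring site in the same asynchronous H3K27ac region (119680585 to 119681389) was lost by Klf4 and had mitotic H3K27ac folds of 6.61 and 9.13.

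The Klf and Sp family, zinc finger factors that bind like sequences, had 16 sites by 6 of 15 genes, of which 4 were kept, 7 intermediate and 5 lost (median strength 65.5). The Klf3 site (chromosome 5, 64810875 to 64812536) was kept, with Klf4 folds of 5.77 and 5.05 in mitotic libraries 1 and 3 and 11.6, 7.90 and 8.49 in asynchronous libraries, and had H3K27ac folds of 19.5 and 18.7 in mitotic and 25.0 and 22.6 in asynchronous libraries. All 4 Klf9 sites were intermediate. Klf4 itself had 1 site, which was kept and was not among those with H3K27ac in both mitotic lists. The Klf13 site at chromosome 7, 63947509 to 63947885 was in all 3 mitotic Klf4 lists, with folds of 4.81, 4.72 and 4.84.

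Chromatin regulators had 24 sites by 12 of 19 genes, 8 kept, 8 intermediate and 8 lost (median strength 60.0), and 23 of the 24 had H3K27ac in both mitotic lists. Tet2, a 5-methylcytosine oxidase, had 5 sites, of which 1 was kept, 3 intermediate and 1 lost, and Tet1, its relative, had 4, of which 1 was kept and 3 lost. All 4 Tet1 sites (within chromosome 10, 62895538 to 62900472) lay in 1 asynchronous H3K27ac region, with H3K27ac folds of 34.9 and 33.0. Eed and Suz12, subunits of Polycomb repressive complex 2, and Jarid2, its cofactor, had 1, 3 and 2 sites. The Eed site and both Jarid2 sites were kept, and no Suz12 site was. Neighbouring sites share the H3K27ac peak, so their marks are not separate observations.

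Glycolysis genes had 17 sites by 8 of 13 genes, 6 kept, 4 intermediate and 7 lost (median strength 62.7). Slc2a3, a glucose transporter, held 4 of the 6 kept sites. These 4 lay within chromosome 6, 122762379 to 122770802 in 1 asynchronous H3K27ac region, and 2 of them had a peak in all 3 mitotic Klf4 lists. The first of these (122762379 to 122762959) had Klf4 folds of 6.92, 5.65 and 13.97 in mitotic libraries, against 3.04 and 9.99 in asynchronous libraries 2 and 3. Tpi1, triosephosphate isomerase, had 3 sites, and all were lost.

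Epithelial junction and polarity genes had 16 sites by 12 of 27 genes, 4 kept, 5 intermediate and 7 lost (median strength 66.1). The Grhl2 site (an epithelial transcription factor; chromosome 15, 37289632 to 37290153) was in all 3 mitotic Klf4 lists, with folds of 5.29, 5.65 and 8.38 against 15.8, 13.0 and 21.0 in asynchronous libraries. Of the 3 sites at Cdh1, which encodes E-cadherin, 2 were intermediate and 1 lost. LIF and Stat3 signalling genes had 12 sites by 6 of 10 genes, 3 kept, 5 intermediate and 4 lost (median strength 65.1). Bcl3, a nuclear partner of NF-kappa B (chromosome 7, 19816014 to 19816680), had Klf4 folds of 5.63, 8.09 and 11.7 in mitotic and 10.4, 5.31 and 8.58 in asynchronous libraries. The LIF receptor gene Lifr had 4 sites, 1 kept and 3 lost.

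Fgf and Erk signalling genes had 10 sites, 2 kept and 4 lost. The Etv5 site, by an Ets factor downstream of Erk (chromosome 16, 22428869 to 22429355), was kept with folds of 7.22 and 5.94 in mitotic libraries 1 and 3. Nodal and Bmp genes had 4 sites, with that of Id1, a Bmp target, kept and that of Nodal lost. Wnt genes had 4 sites, of which 1, at Ctnnb1 (beta-catenin), was kept, and those at the receptor genes Fzd5 and Lrp6 and at the repressor gene Tcf7l1 were lost. G1 and growth control genes had 11 sites, 2 kept and 5 lost: the Ccne1 (cyclin E) site at chromosome 7, 38084800 to 38085460 had Klf4 in all 3 mitotic lists and H3K27ac in neither. The other kept one was at Cdkn1a, a cyclin-dependent kinase inhibitor, and both sites at Cdkn1b, its relative, were lost.

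Germ layer and neural regulators had 4 sites (Gsc, Olig2, Otx2 and Sox1), none kept, 2 intermediate and 2 lost, with a median strength of 33.5. Mitotic machinery genes had 2 sites, by Aurkb (Aurora B kinase) and Mad2l1 (a checkpoint protein), both intermediate. Feeder fibroblast genes had 2 sites, linked to S100a4 and Col1a1. The first was kept and lay inside S100a3, 16.5 kb from S100a4, and the second lay 3.903 kb from Sgca and 5.29 kb from Col1a1. As a check of the label, 7 of 8 stem cell marker genes had H3K27ac within 1 kb of a gene end in both mitotic lists and 7 in both asynchronous lists. Of 12 feeder markers 0 did in mitotic and 1 in asynchronous lists, and of 6 neural progenitor markers 1 and 3.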

How the data were processed

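ChIP-seq libraries of Klf4, Oct4, Sox2 and H3K27ac from mouse embryonic stem cells (24 samples: 17 with a peak list, 7 inputs without) were analysed from deposited narrowPeak lists, 1 per library. Per the submitters' processing notes, the tools named were cutadapt 1.8.1, Bowtie2 2.2.5, deepTools 2.3.6 and MACS2 2.1.1, with build mm10. In the deposited lists the authors gave each peak a fold (ratio over background), a −log10 p and a −log10 q value, and a display score that was not used here. Every listed −log10 p was at least 5, and read depth was unknown. The whole tables were used for the merging, and coordinates are 1-based.

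Peaks were merged and overlapped by at least 1 bp in Python 3.11.15 (pandas 2.3.3, numpy 2.4.6), and figures were drawn with matplotlib 3.10.9. A mitotic peak that spans several sites counts for each. A site was kept with a peak in at least 2 mitotic Klf4 lists, intermediate with 1 and lost with none. Gene ends came from 21896 protein-coding genes of RefSeq (GRCm38.p6). Distances are from the region's nearer edge to the gene span or its ends. Tests were exact two-sided permutations over libraries, either of group labels or of signs (scipy 1.17.1). The scripts were tested on simulated lists. Comparisons within quintiles (5 equal groups of strength or width) average the differences over quintiles. Klf4 strength and Klf4 region width were cut over all 14015 Klf4 regions, so the classes differ in number per quintile. For kept against lost sites, Klf4 strength and H3K27ac strength were cut over the 4160 sites. H3K27ac region width was cut over the distal H3K27ac regions of both asynchronous lists.

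Sites and gene lists were chosen with earlier results of these data known. Sites of the combinations were named only from those with a peak in all 3 asynchronous Klf4 lists. They were the 8 strongest with every mitotic Klf4 and H3K27ac peak, and the 6, 4 and 4 strongest of the other combinations. The 3 strongest with both mitotic Oct4 or both mitotic Sox2 peaks had the same limit. The 2 strongest per gene list could be in any 2 or more of these lists. Genes with at least 3 sites, and other single sites of the lists, were named after their values were seen. Sequence of the other sites, and motif counts over all sites, were not analysed here.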

Additional observations from a re-analysis of the deposited data

Results flagged for a closer look

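In the Klf4 library from the mix with 10% stem cells, 4 of the 4160 sites (0.0962%, exact 95% interval 0.0262 to 0.246) had a peak, against 0.0928% of all Klf4 regions. This library was outside the comparisons, and it was flagged only because the count was above 3, a limit that does not measure background peaks. The share was near that of all Klf4 regions, so it is no trait of these sites. The sites were by Arid5b, Dlg4, Cd83 and Peak1, with folds of 4.68, 4.10, 4.68 and 2.49 in that library, and that by Arid5b was in all 3 mitotic Klf4 lists. The list held 1334 peaks, and its cell mix and its project, EC-DG-4040, cannot be told apart.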

How the results depend on the processing

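The comparisons were repeated, where they could be, with stricter peaks, equal list lengths, a larger overlap, other merging, distal and asynchronous rules, a single project (not for the held-out ones) and without single Klf4, H3K27ac or asynchronous Oct4 or Sox2 libraries. The difference in Klf4 recovery from sites without H3K27ac stayed positive in all 20 alternatives run (7.93 to 23.2 points), that from shared sites negative in all 20 (−35.9 to −9.35), and H3K27ac at kept minus lost sites positive in all 22 (9.62 to 22.4). The H3K27ac difference between distal regions with a site and factor-free ones was 6.62 to 40.005 points over 17 alternatives, and 21.7 to 27.8 without single libraries. Held-out Klf4 differences were −44.4 (stricter q, exact permutation p = 0.2) to −10.9 points (equal length), and −42.2 to −24.7 without single libraries. Those of H3K27ac were −37.8 to −23.6. The difference from gene-end sites reversed with a −log10 q of at least 5 (+1.70), in project EC-EA-3702 alone (+6.55) and within width quintiles (+0.287), and otherwise lay between −10.5 and −0.929 without single libraries. Klf4 recovery of the sites was 23.7% to 47.1% without single libraries and 19.0% with the stricter q. H3K27ac recovery was 59.7% with the stricter q (2468 sites), 73.6% with lists of equal length (1311 sites), 66.3% with an overlap of at least 50% of the shorter (2381 sites), 67.4% for sites in all 3 asynchronous Klf4 lists (1823), 60.5% without RefSeq promoter windows and 58.0% to 67.3% without single libraries. Kept sites then numbered 278 (stricter q), 597 (equal length), 634 (overlap), 413 (all 3 mitotic lists needed), 2484 (any list) and 486 to 1336 (without single libraries). In 1 project 1899 of 4135 sites were kept, by a looser rule: a peak in its 1 mitotic Klf4 list was enough. Lost sites numbered 345 (equal length), 992 (overlap), 401 (all 3 asynchronous lists) and 416 to 2678 (without single libraries). The counts move in part because fewer or more sites enter, and in 1 project the rule for kept and lost itself differs. The other causes were not tested. With the like-numbered H3K27ac libraries paired (replicate block), the mitotic minus asynchronous difference was −33.6 points (exact sign-flip test, p = 0.5, the smallest possible), and nothing in the labels pairs them. The fits without promoter windows, within H3K27ac strength, and of the counts without single libraries or in 1 project, and without the Sox2 library were added after seeing the data. Held-out Klf4 recovery could not be rerun without an asynchronous Klf4 library or with all 3 lists required. Without known depth, a missing peak cannot be told apart from a peak under the limit of the list.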

Other observations

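The share of Klf4 regions that were Klf4-only distal sites with H3K27ac lay between 25.3% (chromosome 8) and 33.0% (chromosome 16) on the autosomes. On the X chromosome it was 38.9% (56 of 144), and 16.1% of these were kept, against 23.0% to 36.4% on the autosomes. On the Y chromosome it was 66.7% (6 of 9), with 33.3% kept. Both rest on few sites, and no difference between chromosomes was tested.

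Among all genes, Gtf2ird1, a relative of a general transcription factor, had the most sites, 8, of which 3 were kept and 4 lost. Gse1 had 6 sites, of which 5 were kept and none lost. Akt2, Dst, Nmnat2 and Pde4d had 7 each. Hes1, a Notch target, had 5 sites, none of them kept and 1 lost.

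Sites in asynchronous Klf4 lists 1 and 2 only (1055) had a kept share of 10.1%, those in lists 2 and 3 only (1218) 16.0%, and those in all 3 lists (1823) 45.0%.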
